A study of Mus musculus with 6 samples.

Results

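The feedback genes of cytokine signalling described here are Cish, Socs1, Socs2, Socs3, Socs5, Socs7, Pias1, Pias2, Pim1 and Pim2. They were chosen by name, as members of the CIS and SOCS, PIAS and PIM families, and make up 10 of the 17831 genes in the deposited table. All 10 passed the filter on low counts that left 13623 genes for testing. RNAseq was performed on lung ILC2s of 2 groups of age- and sex-matched mice. WT mice are labelled CB57BL/6, and SIRPα KO mice carry the germline allele SIRPalphatm1Ynliu/J, which removes SIRPα from every cell type. Both groups received IL-33 intranasally, and their ILC2s were then sorted and cultured with IL-2 and IL-7, so each library comes from IL-33-activated cells and no untreated group is compared here. Each group has 3 libraries, and the labels do not say whether a library holds cells of one animal or of several pooled. The comparison asks how the loss of SIRPα, an inhibitory receptor that binds CD47, changed these genes in ILC2s.

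Group 2 innate lymphoid cells (ILC2s) respond to the alarmin IL-33 and to cytokines such as IL-2, IL-7, IL-4 and TSLP, many of which signal through JAK kinases and STAT factors. STAT factors switch on their own inhibitors. CIS and SOCS proteins bind the activated receptor or JAK through an SH2 domain and recruit a ubiquitin ligase through the SOCS box, and SOCS1 and SOCS3 also block JAK activity directly. PIAS proteins are SUMO E3 ligases first named as inhibitors of activated STATs. PIM kinases are constitutively active serine/threonine kinases that are induced by STATs and promote growth and survival.

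The libraries held between 13980499 and 19051507 reads on genes. WT replicates 1 and 2 share the code number 37, and SIRPα KO replicates 2 and 3 share the code number 44, while the series' design text speaks of duplicates. Libraries of one code may therefore come from one sample, and the p-values below would then measure technical spread in part. The counts of the pair with one code had a chi-square per degree of freedom of 28.3 in WT, where the pairs of different codes had 73.9 and 61.4, and of 10.2 in SIRPα KO, where the pairs of different codes had 8.07 and 11.5. Sampling noise alone would give 1, so no pair was one library deposited again. Spread between libraries, as the biological coefficient of variation, reached 38.1% in WT (27.9% without replicate 3) but 15.2% in SIRPα KO. Sirpa itself had 149, 96 and 73 reads in WT and 48, 85 and 28 reads in SIRPα KO. These read numbers overlapped. Scaled to library size (CPM, here without TMM normalization), WT had 8.62, 6.87 and 4.77 and SIRPα KO 3.04, 4.46 and 1.74. Each SIRPα KO library then lay below each WT library. The log2 fold change of -1.12 did not pass the test (edgeR's quasi-likelihood test, adjusted p = 0.115). Whether those reads lie in the part removed by the allele cannot be read from a gene count. The 16 ILC2 markers summed to between 15356 and 16806 CPM (again without TMM normalization, which CPM in later paragraphs include) in WT and between 21360 and 21777 CPM in SIRPα KO. Most of that sum was Il5, at between 8498 and 9769 CPM in WT and between 12593 and 13131 CPM in SIRPα KO, while Gata3, the defining factor of ILC2s, had a log2 fold change of 0.10 (edgeR, adjusted p = 0.566). The B cell markers, all 6 in the table, summed to between 214 and 482 CPM in WT and between 22.9 and 84.6 CPM in SIRPα KO. The 4 markers of NK cells and ILC1 summed to between 8.94 and 12.4 CPM in WT and between 0.507 and 1.06 CPM in SIRPα KO. The 7 T cell markers in the table summed to between 206 and 270.1 CPM in WT and between 123 and 131 CPM in SIRPα KO, and 1 of the 7 had no read in any WT library. The 9 macrophage and monocyte markers overlapped, at between 455 and 930 CPM in WT and between 530 and 782 CPM in SIRPα KO. The 1 endothelial marker in the table was higher, at between 15.9 and 27.5 CPM in WT and between 40.4 and 43.8 CPM in SIRPα KO. Sums for ILC3, mast cells and basophils, neutrophils, eosinophils and epithelium overlapped. In bulk samples, fewer cells of a type and less RNA per cell cannot be told apart.

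The promoters of Cish, Socs1 and Socs3 are printed, as 3 STAT-induced members of the CIS and SOCS families. The choice left out Pim2, which had more CPM than Socs3 in both groups. RefSeq windows of GRCm38.p6, from 250 bases before the start of transcription to 50 after it, were found for 6 of the 10 genes, namely Cish, Socs1, Socs3, Pias1, Pim1 and Pim2. Capitals mark each match to TTCNNNGAA, the spaced palindrome that STAT dimers are known to bind. The Cish window is chr9:107296409-107296708 on the plus strand, the Socs1 window is chr16:10785487-10785786 on the minus strand, and the Socs3 window is chr11:117969317-117969616 on the minus strand. All 3 are written 5′ to 3′ in the direction of transcription.
Cish: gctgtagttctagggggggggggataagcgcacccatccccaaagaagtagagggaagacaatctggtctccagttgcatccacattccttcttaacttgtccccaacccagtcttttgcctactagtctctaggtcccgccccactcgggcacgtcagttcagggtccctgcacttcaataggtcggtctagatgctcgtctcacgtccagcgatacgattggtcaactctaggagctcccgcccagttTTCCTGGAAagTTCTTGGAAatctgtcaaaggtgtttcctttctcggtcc
Socs1: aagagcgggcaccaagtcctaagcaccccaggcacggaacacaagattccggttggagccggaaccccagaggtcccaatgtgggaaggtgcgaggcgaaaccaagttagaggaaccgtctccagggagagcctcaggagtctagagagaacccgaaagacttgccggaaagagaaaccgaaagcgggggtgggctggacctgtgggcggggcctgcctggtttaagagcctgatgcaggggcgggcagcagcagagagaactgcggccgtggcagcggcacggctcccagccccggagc
Socs3: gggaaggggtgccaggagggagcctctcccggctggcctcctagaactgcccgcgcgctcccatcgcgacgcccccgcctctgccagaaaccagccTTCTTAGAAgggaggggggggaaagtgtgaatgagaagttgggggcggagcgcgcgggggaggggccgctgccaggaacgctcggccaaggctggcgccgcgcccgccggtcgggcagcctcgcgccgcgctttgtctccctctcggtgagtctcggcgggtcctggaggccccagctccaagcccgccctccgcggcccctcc
Cish held a pair of matches, at positions 1 to 9 and 12 to 20 counted from the RefSeq start of transcription used for its window. Socs3 held 1 match, at positions -154 to -146. The gene spans given below for Cish and Socs3 begin upstream of these windows, so the positions hold for the RefSeq start alone. The windows of Socs1, Pias1, Pim1 and Pim2 held none, which says only that these letters are not in those windows. TTCNNNGAA reads the same on both strands as a pattern, and 8.30% of all 32851 windows of this length held it. The same half-sites with 4 bases between them were in none of the 6 genes' windows and in 6.95% of all windows, and no match shown overlaps that motif. GC content was 53.3% in the Cish window, 63.3% in the Socs1 window and 73.3% in the Socs3 window.

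Socs1 and Socs3 were lower in SIRPα KO than in WT, and the other 8 genes did not pass the test in either direction. Among all tested genes, 11.7% passed (adjusted p under 0.05), 5.94% as higher and 5.81% as lower. The 2 of 10 feedback genes called, both lower, can be read against those shares, and a count of this size gives little room for a comparison. For 6 of the 10 genes the WT and SIRPα KO libraries were fully apart, 3 lower and 3 higher in SIRPα KO, where 42.8% of all tested genes had groups that did not overlap. The median log2 fold change of the 10 genes was 0.04, with 5 above and 5 below 0, beside -0.02 over all genes tested. Socs1 and Socs3 thus fell, while the PIAS and PIM genes had values above 0 that did not pass the test. With the length and GC correction described below, Pias1 was at -0.03.

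**Figure D1:**
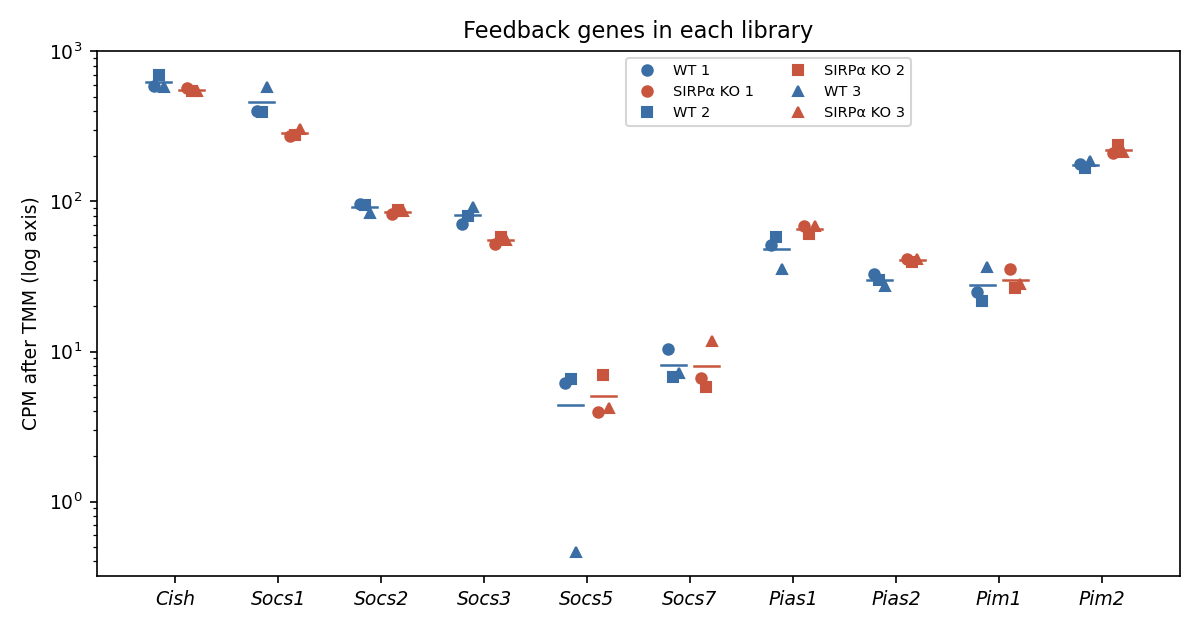
CPM of each feedback gene (log axis) in the 3 WT libraries (blue) and the 3 SIRPα KO libraries (red). Each symbol is a library and each bar a group mean. The 3 SIRPα KO values of Socs1 and of Socs3 all lie below the 3 WT values, and the WT value of Socs5 that lies far below the others is replicate 3.

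SOCS1, which is induced by interferons and by many other cytokines, blocks JAK1, JAK2 and TYK2. The gene Socs1 (ENSMUSG00000038037, chr16:10782240-10785536, minus strand, mm10) had 401, 396 and 583 CPM in WT replicates 1, 2 and 3, and 274, 278 and 304 CPM in SIRPα KO replicates 1, 2 and 3. All SIRPα KO libraries lay below all WT libraries, and WT replicate 3 stood highest. The means were 460 ± 106 CPM in WT, against 285 ± 16.3 CPM in SIRPα KO (SD, n = 3 each), from between 4285 and 8799 reads a library. WT was 1.61-fold higher by the group means. The log2 fold change was -0.69 with a standard error of 0.16 and a 95% interval of -1.07 to -0.31 (edgeR, adjusted p = 0.0367).

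SOCS3, an inhibitor of receptors that use gp130 and of several other JAK-coupled receptors, is a well known target of STAT3. Its gene Socs3 (ENSMUSG00000053113, chr11:117966079-117970047, minus strand) had 70.7, 80.0 and 91.4 CPM in WT, against 51.9, 57.6 and 55.7 CPM in SIRPα KO. The highest SIRPα KO value was below the lowest WT value. The means were 80.7 ± 10.4 CPM in WT, against 55.1 ± 2.91 CPM in SIRPα KO, a WT level 1.47-fold higher. The log2 fold change was -0.55 with a standard error of 0.14 and a 95% interval of -0.88 to -0.22 (edgeR, adjusted p = 0.0461).

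The calls of Socs1 and Socs3 depended on the libraries and on the processing. Leaving out SIRPα KO replicate 1, 2 or 3 in turn gave adjusted p = 0.162, 0.158 and 0.117 for Socs1 and 0.191, 0.164 and 0.156 for Socs3, with log2 fold changes of -0.65, -0.66 and -0.73 and of -0.50, -0.58 and -0.55, and only 16 to 17 genes of the whole table were then called. Leaving out WT replicate 2 gave adjusted p = 0.0634 for Socs3. Without WT replicate 3, the WT library highest in both genes, the log2 fold changes were smaller in size. They were -0.475 for Socs1 (edgeR, adjusted p = 0.00715) and -0.444 for Socs3 (edgeR, adjusted p = 0.0351). Summing libraries of one code, which leaves 2 against 2, gave a log2 fold change of -0.79 for Socs1 (edgeR, adjusted p = 0.146) and -0.60 for Socs3 (edgeR, adjusted p = 0.167). Both genes had a negative log2 fold change in every alternative run, but neither was called by edgeR with a library of SIRPα KO left out, with codes summed or with the length and GC correction described next.

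The fold change of a gene went with the length of its transcript across the transcriptome. It had a median of -0.55 on the log2 scale in the tenth of genes with the shortest transcripts, whose median length was 977 bases, and 0.47 in the tenth with the longest, whose median length was 8132 bases. With an offset for length and GC content fitted to each library (the length and GC correction), Socs1 had a log2 fold change of -0.53 (edgeR, adjusted p = 0.0844) and Socs3 of -0.33 (edgeR, adjusted p = 0.171). Pim2, whose transcript is the shortest of the 10, had 0.57 (edgeR, adjusted p = 0.0139), and Pias1 moved from 0.45 to -0.03. Socs2 was called at -0.45 (edgeR, adjusted p = 0.0425) when its longest annotated transcript of 4242 bases, which is not protein-coding, was used. With its longest protein-coding transcript of 2222 bases it had -0.17 (edgeR, adjusted p = 0.291), while Socs1 had -0.59 (edgeR, adjusted p = 0.0806), Socs3 -0.38 (edgeR, adjusted p = 0.131) and Pim2 0.50 (edgeR, adjusted p = 0.0172). The version with coding transcripts was added after the data had been seen. What part the length trend had in the result was not tested.

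**Figure D2:**
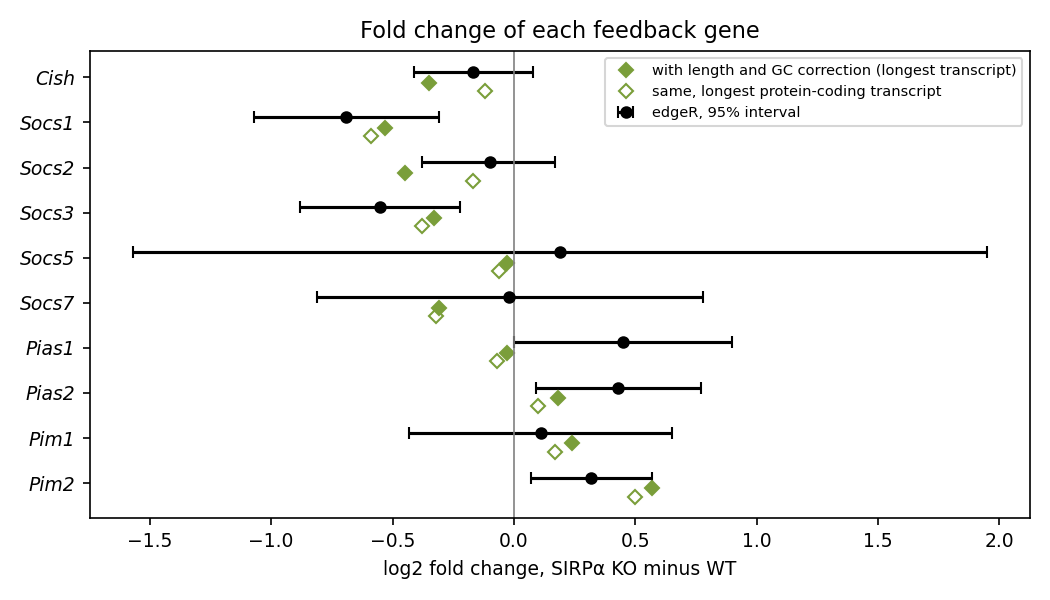
Log2 fold change of each feedback gene, SIRPα KO minus WT (horizontal axis), with its 95% interval from edgeR (black) and with the length and GC correction (diamonds, filled for the longest transcript and open for the longest protein-coding transcript). The intervals of Socs1, Socs3, Pias2 and Pim2 leave out 0, and only those of Socs1 and Socs3 come with an adjusted p under 0.05.

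CIS, encoded by Cish, is the classic product of STAT5 activity and limits IL-2 and TSLP signalling. Cish (ENSMUSG00000032578, chr9:107296026-107302784, plus strand) had 587, 700.2 and 579 CPM in WT, against 573, 548 and 541 CPM in SIRPα KO. The groups did not overlap, by a gap of a few CPM between WT replicate 3 and SIRPα KO replicate 1. The means were 622 ± 67.7 and 554 ± 17.0 CPM, and the log2 fold change of -0.17 did not pass the test (95% interval -0.41 to 0.08, edgeR, adjusted p = 0.31). A fall of about that size or a small rise cannot be told apart from these libraries. Cish shares part of its locus with the pseudogene Gm17040 on the opposite strand, which had 55, 48 and 31 reads in WT and 15, 12 and 21 in SIRPα KO. Whether reads were counted by strand is not given in the sources used here, so reads of Cish and of Gm17040 cannot be told apart.

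SOCS2, best known as the inhibitor of growth hormone receptor signalling and also a STAT5 target, was measured at 96.7, 94.9 and 84.0 CPM in WT, against 83.0, 87.8 and 85.8 CPM in SIRPα KO for its gene Socs2 (ENSMUSG00000020027, chr10:95385362-95417180, minus strand). The groups overlapped, and the log2 fold change was -0.10 (95% interval -0.38 to 0.17, edgeR, adjusted p = 0.578). With the length and GC correction on its longest transcript it was called at -0.45, as given above, and with the coding transcript it was not.

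The 4 genes Cish, Socs1, Socs2 and Socs3 together had 1254 ± 91.8 CPM in WT, against 980.0 ± 7.79 CPM in SIRPα KO, with 3 SIRPα KO libraries below 3 WT libraries. Cish and Socs1 made up most of that sum, and Cish and Socs2 did not pass the test on their own. Pim1 and Pim2 together lay the other way, at 203.9 ± 16.6 CPM in WT, against 250.1 ± 12.2 CPM in SIRPα KO, and their groups did not overlap either. Pim2 made up most of that sum, Pim1 overlapped between the groups, and neither passed the test on its own. Ratios of reads within a library do not depend on the scaling, but they were not corrected for length and GC content. With the correction on the longest transcript, log2 fold changes were -0.53 for Socs1, -0.33 for Socs3, -0.35 for Cish and -0.45 for Socs2. Socs3 was then not lower than Cish or Socs2. On the coding transcript the values were -0.59, -0.38, -0.12 and -0.17 in the same order. The ratio of Socs1 to Cish was 0.682, 0.566 and 1.01 in WT and 0.478, 0.507 and 0.561 in SIRPα KO. The ratio of Socs3 to Socs2 was 0.731, 0.843 and 1.09 in WT and 0.626, 0.656 and 0.649 in SIRPα KO. In both cases each SIRPα KO library lay below each WT library. The ratio of Socs1 to Socs3 was 5.67, 4.95 and 6.38 in WT and 5.28, 4.82 and 5.45 in SIRPα KO, and it overlapped.

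Of 9 ratios compared by a two-sided exact permutation test, 5 reached p = 0.1, the smallest value that 3 against 3 allows, with p = 0.18 adjusted over the 9. These were Socs1 to Cish, Socs3 to Cish, Socs1 to Socs2, Socs3 to Socs2 and Socs1 to Pim2, with log2 differences of -0.51, -0.38, -0.57, -0.44 and -0.99. Each of them has Socs1 or Socs3, called lower in the same libraries, as its numerator, so they add no separate support. How often ratios of other gene pairs separate the groups was not computed. The design cannot reach 0.05 for a single ratio. The ratio of Socs2 to Cish differed by 0.06 (exact permutation p = 0.7) and that of Socs1 to Socs3 by -0.12 (exact permutation p = 0.4), and for both the WT and SIRPα KO libraries overlapped.

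**Figure D3:**
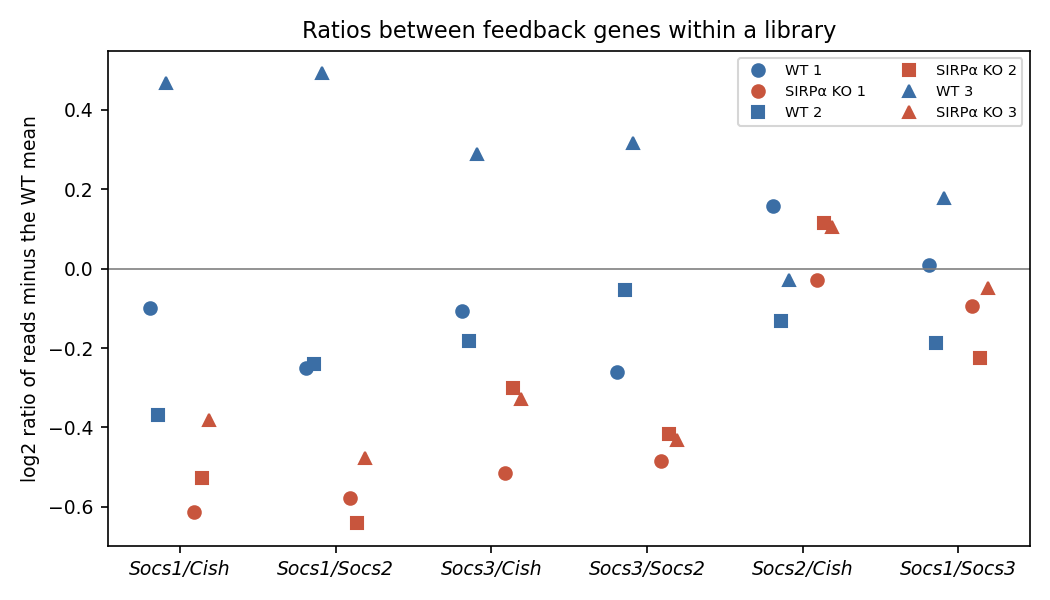
Log2 ratio of reads of a pair of feedback genes in each library (WT blue, SIRPα KO red), minus the mean of the 3 WT libraries. The ratios carry no length and GC correction. For the 4 ratios of Socs1 or Socs3 to Cish or Socs2 all SIRPα KO libraries lie below all WT libraries, and for Socs2 to Cish and Socs1 to Socs3 the groups overlap.

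SOCS5, which has been linked to inhibition of IL-4 receptor signalling, was weakly expressed. Socs5 (ENSMUSG00000037104, chr17:87107679-87137839, plus strand) had 6.21, 6.61 and 0.463 CPM in WT, against 3.96, 6.98 and 4.22 CPM in SIRPα KO. WT replicate 3 had 7 reads where the other libraries had between 62 and 133, and the log2 fold change of 0.19 had an interval from -1.57 to 1.95 (edgeR, adjusted p = 0.883). Leaving out WT replicate 3 gave -0.33, leaving out SIRPα KO replicate 2 gave -0.11, and the value was -0.03 with the length and GC correction, so these libraries give it no direction. Socs7 (ENSMUSG00000038485, chr11:97362551-97398542, plus strand), a member of the family with a less settled role, had 10.4, 6.76 and 7.22 CPM in WT, against 6.65, 5.77 and 11.7 CPM in SIRPα KO. The log2 fold change was -0.02 (95% interval -0.81 to 0.78, edgeR, adjusted p = 0.98), and at these reads a change of up to about that interval was not detectable.

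Of the PIAS genes, Pias1 (ENSMUSG00000032405, chr9:62878368-62987924, minus strand), which encodes a SUMO E3 ligase, had 51.1, 58.3 and 35.7 CPM in WT, against 68.9, 60.6 and 68.3 CPM in SIRPα KO. All SIRPα KO values were above all WT values, with means of 65.9 ± 4.62 and 48.4 ± 11.6 CPM. The log2 fold change of 0.45 did not pass the test (edgeR, adjusted p = 0.158), and it was 0.28 without WT replicate 3 and -0.03 with the length and GC correction. Pias2 (ENSMUSG00000025423), whose product is also called PIASx, had 32.7, 30.1 and 27.5 CPM in WT, against 41.2, 39.2 and 41.1 CPM in SIRPα KO. Its groups did not overlap either, and its log2 fold change of 0.43 did not pass the test (95% interval 0.09 to 0.77, edgeR, adjusted p = 0.0937). With the length and GC correction Pias2 had 0.18 (edgeR, adjusted p = 0.398), and 0.10 on the coding transcript (edgeR, adjusted p = 0.661). The ratio of Pias1 to Pias2 overlapped between the groups. DESeq2 called Pias2 (adjusted p = 0.0295), as it called Pim2 (adjusted p = 0.0372), and both lost their call with DESeq2 when libraries of one code were summed, at adjusted p = 0.229 and 0.327.

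PIM2 maintains protein synthesis and survival in lymphocytes. Its gene Pim2 (ENSMUSG00000031155, chrX:7878262-7883432, plus strand) had 177, 167 and 185 CPM in WT, against 209.8, 238 and 213 CPM in SIRPα KO. Each SIRPα KO library lay above each WT library. The means were 176 ± 9.16 and 220.2 ± 15.2 CPM and the log2 fold change was 0.32, with an interval of 0.07 to 0.57 (edgeR, adjusted p = 0.0881). Without WT replicate 3 it passed the test (edgeR, adjusted p = 0.0271). Pim1 (ENSMUSG00000024014, chr17:29490753-29496112, plus strand), whose product phosphorylates cell cycle regulators, had 25.0, 21.8 and 36.5 CPM in WT, against 35.3, 26.4 and 28.2 CPM in SIRPα KO. The groups overlapped (log2 fold change 0.11, edgeR, adjusted p = 0.781), and the value ranged from -0.04 without WT replicate 2 to 0.36 without WT replicate 3, with -0.02 without SIRPα KO replicate 1 and -0.01 with upper quartile scaling. The first bases of Pim1 are shared with Gm26885 on the opposite strand, which had at most 28 reads in any library.

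**Figure D4:**
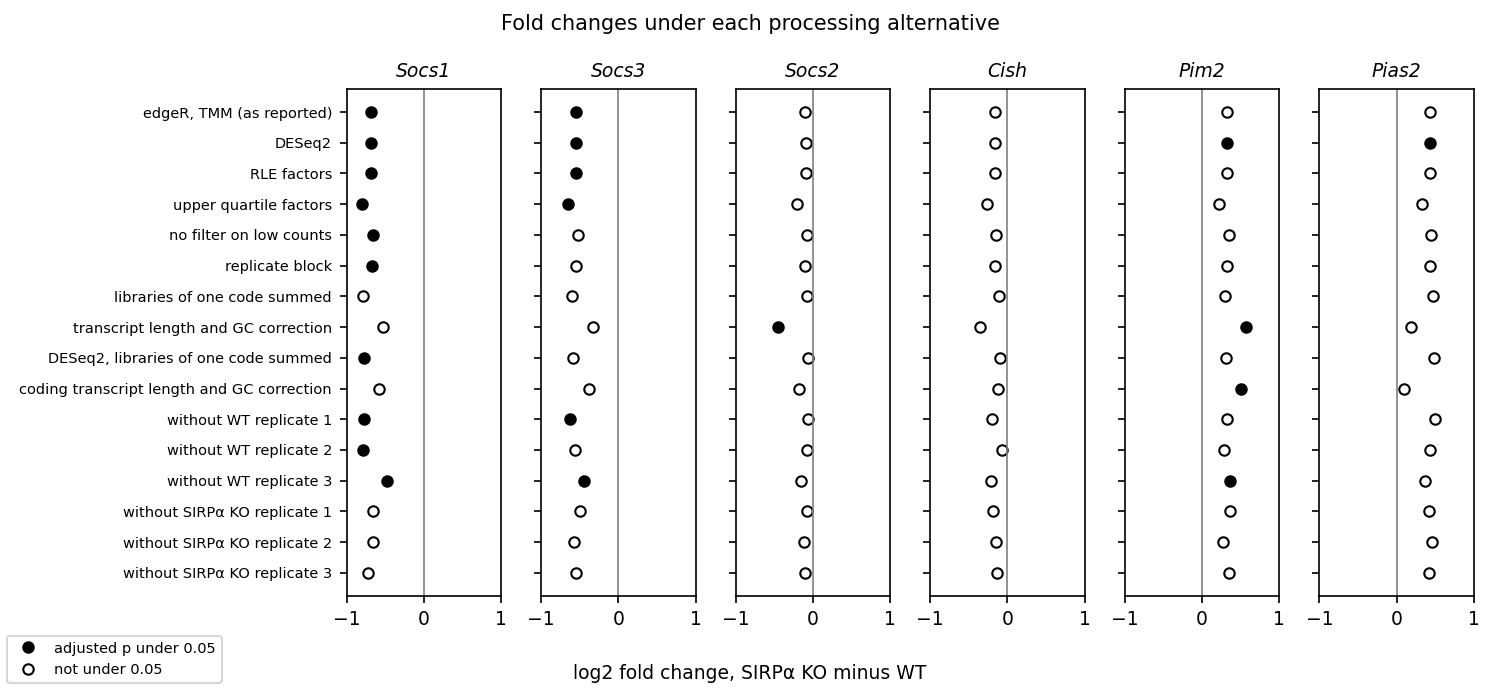
Log2 fold change of 6 feedback genes, SIRPα KO minus WT (horizontal axis of each panel), under each processing alternative (rows). Filled circles have an adjusted p under 0.05 and open circles do not. Socs1 and Socs3 lie below 0 in every row, and none of the 6 genes is called in the rows that leave out a SIRPα KO library.

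Compared per length, as CPM per kilobase of the longest protein-coding transcript, Cish was the most abundant of the 10 genes in both groups, at 218 ± 23.8 in WT and 194 ± 5.97 in SIRPα KO. Socs1 followed in WT at 158 ± 36.6, ahead of Pim2 at 86.1 ± 4.48. In SIRPα KO, Pim2 at 108 ± 7.46 and Socs1 at 98.0 ± 5.60 were not apart beyond the spread, and Socs1 was above Pim2 in 3 of 3 WT libraries but in 1 of 3 SIRPα KO libraries. Socs2 and then Socs3 came next in both groups, at 41.3 and 31.6 in WT and 38.5 and 21.6 in SIRPα KO. Pim1, Pias2 and Pias1 lay between 8.69 and 13.2 CPM per kilobase, and in WT their ranges overlapped. Socs7 and Socs5, at about 1 CPM per kilobase, did not differ beyond their spread in either group.

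Across the 6 libraries, the genes whose log2 CPM was most like that of Socs1, among 9145 genes averaging at least 3 on that scale, were Psma1 (Pearson r = 0.9998), Uqcrb (0.9995) and Cox7b (0.9991). They encode a proteasome subunit and subunits of respiratory chain complexes. A correlation does not compare the size of a change. In the same order, log2 fold changes were -0.23, -0.60 and -0.66 (edgeR, adjusted p = 0.153, 0.0426 and 0.0462), beside -0.69 for Socs1. The points are the same 6 libraries with one scaling, in which Socs1 differed between the groups and stood highest in WT replicate 3, so the correlation is a description only.

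Of the other members of these families, Socs4, Socs6, Pias3, Pias4 and Pim3, none of 5 was called. The smallest p was that of Socs6, with 18.1, 27.5 and 10.8 CPM in WT, against 40.3, 36.7 and 31.9 CPM in SIRPα KO (log2 fold change 0.95, edgeR, adjusted p = 0.0878). With the length and GC correction Pim3, the third PIM kinase, was called instead (0.56, edgeR, adjusted p = 0.0347). SOCS box proteins work through a ligase of elongins B and C, cullin 5 and a RING protein, and a list of 7 genes of this and related cullin ligases, which also holds Cul2 and Rbx1, had 1 gene higher and 2 lower. Elob, the gene of elongin B, fell from 272 ± 85.6 to 135.5 ± 2.73 CPM (log2 fold change -1.01, edgeR, adjusted p = 0.0257), and Rbx1, which encodes the RING protein of cullin ligases other than cullin 5, fell from 335.5 ± 84.9 to 198 ± 9.17 CPM (-0.76, edgeR, adjusted p = 0.0335). Cul5, the scaffold, rose from 44.0 ± 10.0 to 72.2 ± 3.68 CPM (0.71, edgeR, adjusted p = 0.047). With the length and GC correction, Rbx1 stayed called while Elob (adjusted p = 0.424, edgeR) and Cul5 (adjusted p = 0.305, edgeR) did not.

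In the SUMO machinery through which PIAS proteins work, 1 of 12 genes was higher and none lower. Senp5, a SUMO protease, rose from 26.9 ± 8.17 to 69.7 ± 8.28 CPM (log2 fold change 1.37, edgeR, adjusted p = 0.0185), also with the length and GC correction (adjusted p = 0.0187, edgeR). Among 13 other inhibitors of JAK/STAT signalling, Ptprc, the phosphatase CD45, was higher (log2 fold change 0.90, edgeR, adjusted p = 0.0484), and Nmi, an interferon-induced STAT partner, was lower (-0.75, edgeR, adjusted p = 0.03). So was Ndufa13 (-0.91, edgeR, adjusted p = 0.0244), also called GRIM-19, whose product binds STAT3 and is a subunit of respiratory complex I. With the length and GC correction Nmi kept its call (edgeR, adjusted p = 0.0482), while Ptprc (0.074) and Ndufa13 (0.123) did not. Ptpn6, the phosphatase SHP-1, was then called as higher (0.54, edgeR, adjusted p = 0.0407) and Cbl, a ubiquitin ligase, as lower (-0.88, edgeR, adjusted p = 0.0273). Ptprc is also one of the ILC2 markers summed above, as are Il2ra and Il7r.

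None of the 11 JAK and STAT genes passed the test. The smallest p among them was that of Stat5a, with 52.7, 63.4 and 52.2 CPM in WT, against 90.6, 90.3 and 65.9 CPM in SIRPα KO (log2 fold change 0.55, edgeR, adjusted p = 0.0716). Of 21 receptor chains that feed this pathway, 17 were tested, and 2 of them were called. Il2ra, the IL-2 receptor α chain, rose from 1841 ± 377 to 3451 ± 30.2 CPM (log2 fold change 0.91, edgeR, adjusted p = 0.0154), and Crlf2, the TSLP receptor chain, fell from 23.0 ± 6.21 to 10.5 ± 0.797 CPM (-1.14, edgeR, adjusted p = 0.0267). With the length and GC correction, Il2ra kept its call at 0.54 (edgeR, adjusted p = 0.00386) and Crlf2 did not (0.272). Il6ra and Il12rb2 were below the filter on low counts, and Lifr and Osmr were not among the genes of the deposited table.

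Of 16 other genes known as STAT5 targets, 15 were tested, and 1 was higher and 3 were lower. Il2ra, counted here too, was the higher one. Ccnd3, cyclin D3 (573 ± 20.3 to 373 ± 7.45 CPM, log2 fold change -0.62, edgeR, adjusted p = 0.0129), Cdkn1a, the cell cycle inhibitor p21 (-0.59, edgeR, adjusted p = 0.0215), and Gzma, granzyme A (-1.90, edgeR, adjusted p = 0.0391), were lower. Ccnd3 and Cdkn1a kept their calls with the length and GC correction, and Gzma did not (edgeR, adjusted p = 0.0549). Gzma is also a gene of NK cells, whose 4 markers were lower in SIRPα KO as given above, and their part in that value was not tested. Myc (log2 fold change 0.37, edgeR, adjusted p = 0.0532) and Bcl2l1 (0.41, edgeR, adjusted p = 0.0578) lay above 0 without passing. With the length and GC correction, Myc (0.51, edgeR, adjusted p = 0.0214) and Bcl2l1 (0.57, edgeR, adjusted p = 0.0187) were called as higher and Bcl2, a survival gene, as lower (-0.98, edgeR, adjusted p = 0.00336), which made 3 higher and 3 lower of the 15 genes.

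The list medians of log2 fold change were 0.14 for the other family members, -0.14 for the SOCS box partners, 0.12 for the SUMO machinery, 0.03 for the other inhibitors, 0.31 for JAKs and STATs, -0.11 for the receptor chains and -0.29 for the other STAT5 targets, beside -0.02 over all genes tested. With the length and GC correction, they were 0.41, -0.12, 0.04, -0.23, 0.03, 0.01 and -0.42 in the same order. The sign of the medians of the other inhibitors and of the receptor chains changed with that correction, and none of the 7 lists held a called gene when a SIRPα KO library was left out or when libraries of one code were summed (edgeR). Among the same genes at 3 against 3, the called shares of the 7 lists, between 0 of 11 and 3 of 7 genes, can be read against the 11.7% of all genes called.

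The SOCS genes can also be set beside the cytokine readout of the same cells. Il6 rose in SIRPα KO by 1.81 on the log2 scale (edgeR, adjusted p = 0.00586). Socs3, a known target of IL-6 signalling, was lower in the same libraries, in which Il6ra did not pass the filter on low counts. Markers of B, T and NK cells were lower in SIRPα KO, in the same direction as Socs1 and Socs3. Those of macrophages and monocytes overlapped between the groups, and the endothelial marker was higher. The part of such cells in the values of Socs1 and Socs3 was not tested. The sort took cells without surface markers of T, B and NK cells, among them CD3ε, TCRβ, B220 and CD335.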

How the data were processed

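Bulk RNAseq of cultured lung ILC2s was analysed in 3 WT and 3 SIRPα KO libraries. Libraries were amplified from 10 pg of RNA each. The authors aligned reads to mm10 with STAR and deposited estimated counts per gene (GENCODE M21), not scaled for library size. The submitters' processing notes name STAR 2.7.8, Partek 10.0 and DESeq2, while the paper's methods name other versions of STAR and Partek. Strand use and the treatment of overlapping genes are not given in the sources used here. Of the gene columns, 150 were recorded by name and 17681 others hold the same unit.

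Counts were rounded, filtered with filterByExpr (minimum count 10, minimum total 15), scaled by TMM and tested on genotype with edgeR 4.0.16's quasi-likelihood test in R 4.3.3, with Benjamini-Hochberg adjustment over 13623 genes and an adjusted p under 0.05 as the threshold. Standard errors were taken from the F statistic. CPM are after TMM, except those of Sirpa, Il5 and the cell type marker sums, which are scaled to library size alone. DESeq2 1.42.0, other scalings, no filter, a replicate block, libraries of one code summed, leaving out each library, and a length and GC correction (splines with 5 degrees of freedom, fitted on 9116 genes outside the members) were alternatives. Intervals come from the spread between libraries.

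All 10 members are named. In each list the genes called are named, or the gene with the smallest p where none was. The members, lists and motifs were chosen with earlier results of these data known. The procedures were tested on simulated data. Promoters are RefSeq windows. One result of the gene lists is not reported here. Proteins were not analysed here, nor were the single-cell data.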

Additional observations from a re-analysis of the deposited data

How the results depend on the processing

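The 1600 genes called rose to 3051 with DESeq2, fell to 10 with libraries of one code summed, and ranged from 16 to 2606 when a library was left out. The count of feedback genes called, 2 with edgeR, was 4 with DESeq2, 1 without the filter on low counts, 1 with the replicate block, 0 with codes summed (2 at an unadjusted p under 0.05), and 0 to 3 when a library was left out. Chosen after seeing the data, DESeq2 with codes summed called 1, Socs1 (adjusted p = 0.0253), and the coding transcript correction called 1. The 2 genes called with the correction on the longest transcript were Socs2 and Pim2, not Socs1 and Socs3. The members' median log2 fold change moved from 0.04 to -0.059 with upper quartile factors, -0.17 with the length and GC correction and -0.093 with its coding version, and ranged from -0.12 to 0.12 when a library was left out. Upper quartile factors gave 703 genes higher and 1010 lower, against 809 and 791, with an all-gene median of -0.12. Socs1 and Socs3 kept a negative log2 fold change in all of these alternatives. The list genes were followed by value in the length and GC correction only. The cause of these shifts was not tested.

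Replicate numbers did not pair the libraries (correlations of same-numbered deviations -0.14, 0.18 and 0.03). With the replicate block, 1118 genes were called and Socs3 had adjusted p = 0.0775. Genes below about 10 CPM, Socs5 and Socs7, had intervals too wide for a direction.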
